A study of Homo sapiens with 6 samples.

Results

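The WNT ligands, their Frizzled (FZD) and LRP5/LRP6 receptors and the secreted proteins that block them were followed in a human leukemia line in which the transcription factor ERG is switched on by a drug. The set of 40 genes was given by name: 19 WNT ligands, 10 Frizzled receptors, 2 LRP coreceptors and 9 secreted antagonists of the SFRP, DKK and WIF families. Of these, 37 had at least 1 probe set annotated to that gene alone, 75 probe sets in all, out of 19775 genes and 54613 probe sets tested. FZD8 and WNT3 were covered only by probe sets shared with other gene symbols, 3 probe sets each, and WNT3A had no row in the annotation, so that these 3 genes were not analysed here.

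WNT proteins are secreted lipid-modified ligands that bind a Frizzled receptor at the cell surface. With LRP5 or LRP6 as coreceptor they stop the destruction complex from degrading beta-catenin, which then turns on target genes with TCF/LEF factors, while other ligands, among them WNT11, mostly act without beta-catenin, through small GTPases, kinases and calcium, on cell shape and movement. SFRP and WIF proteins bind the ligands themselves, and DKK1, DKK2 and DKK4 act on the LRP coreceptors. In blood, WNT signals are known for acting on stem and progenitor cells and are often altered in leukemia.

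The cells were K562, an erythroleukemia line from a patient with chronic myeloid leukemia, carrying a doxycycline-inducible ERG construct (pTRE-ERG) as stable integrants. There were 3 clones, CL4, CL9 and CL46, and values by clone stand in that order below unless a clone is named beside each. In the ERG-induced group each clone was grown with 1 µg/ml doxycycline (DOX) for 8 days, and in the non-induced group without it, which gave 3 Affymetrix U133 Plus 2.0 arrays per group and 6 in all. Each clone is a single line with 1 array per condition, so a clone has no replicate of its own. The errors below come from the spread between clones within each group, not from the spread of the differences by clone. As every induced culture received DOX and no culture without the construct was compared, effects of ERG and of DOX cannot be told apart.

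The values were ratios, in which most probe sets have a median of 1 over the 6 arrays and 7 of the 75 probe sets of these genes a median below 1, so a ratio of 1 is usually the middle of that probe set and levels of different genes cannot be set side by side. Nor could the cell type be checked by the level of its markers. The median ratio of an array was 0.898 to 0.999 under the ERG-induced label and 0.990 to 1.07 under the non-induced one. ERG itself, on 4 probe sets, differed by -0.76 on the log2 scale (SE 0.63, limma adjusted p = 0.671) and was lower on the array labelled ERG-induced in 3 of 3 clones. Where those probes lie relative to the introduced sequence was not stated, so ERG checks no label here, and every direction below follows the labels. The 3 probe sets for 18S ribosomal RNA, which control for sample quality, were higher in the induced arrays of all 3 clones, by 1.21, 0.59 and 0.82 on the log2 scale, and the part of this in the results was not tested.

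A gene was called when its mean over probe sets differed at least 2-fold with an unadjusted p under 0.05 in limma. The thresholds are the study's, but the study used other software and its gene counts differ from those here. Over all genes 617 were called higher here and 1250 lower, so the calls are not the study's own lists. Under this rule 4 genes of the WNT set were called higher on the arrays with the ERG-induced label (WNT11, DKK2, SFRP2 and WNT10B), 1 was called lower (WNT9B), and 32 were not called. That is 10.8% of the measured set called higher, where 3.12% of all genes were, and 2.70% called lower, where 6.32% of all genes were. The median log2 difference was 0.22 over the 37 genes and -0.03 over all genes, with 25 of the 37 above 0 and 12 below. No gene of the array had a limma adjusted p under 0.05. The lowest was 0.101 over all genes and 0.192 in the set, for WNT11, while 2544 genes had an unadjusted p under 0.05, where chance gives 989. In the set, 6 of the 37 measured genes had such a p, beside 2544 of the 19775 genes of the array, and no test compared these shares.

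**Figure D1:**
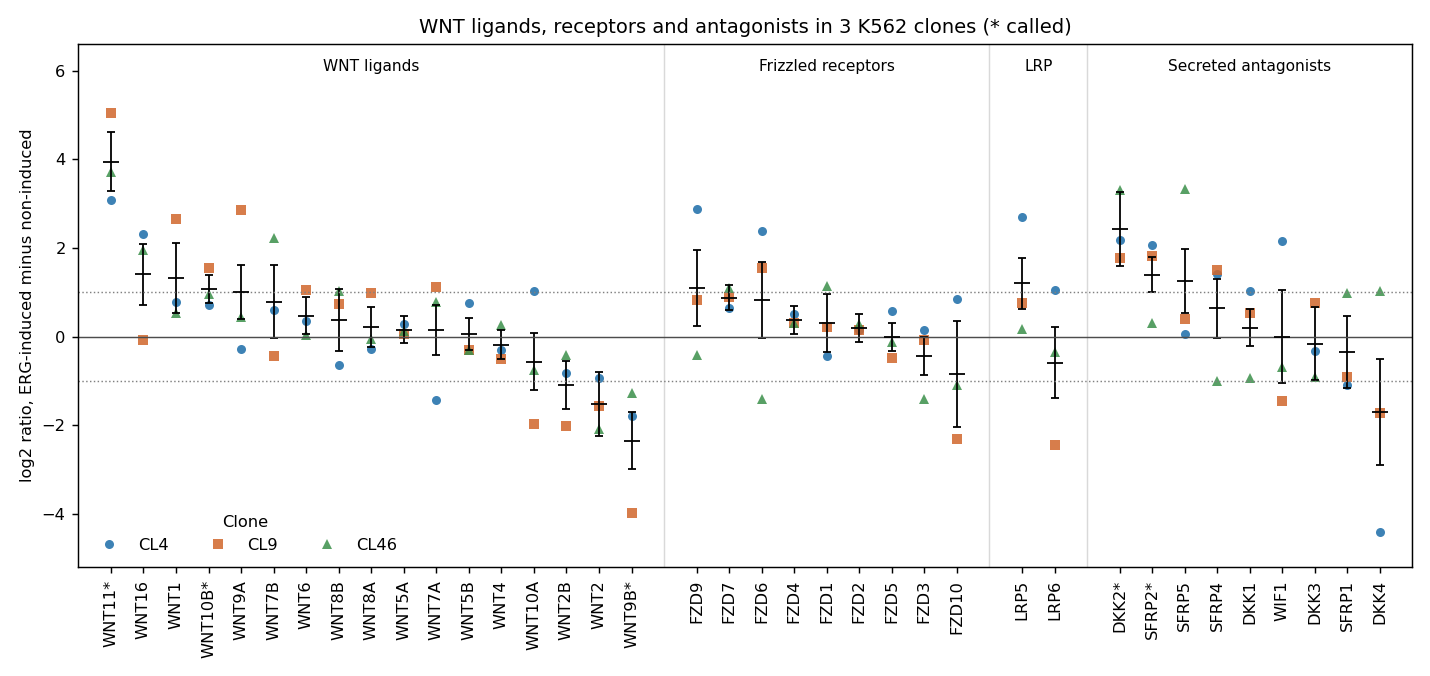
Log2 difference, ERG-induced minus non-induced, of the 37 measured genes by role, with symbols for the clones CL4, CL9 and CL46 and black lines for the mean ± SE of the limma fit (3 arrays per group). Dotted lines mark 2-fold and an asterisk marks a called gene: WNT11 lies above 3 in all 3 clones, WNT9B lies below -1 in all 3, and most other genes have clones on both sides of 0.

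Among the ligands, 17 of 19 were measured, with 2 called higher, 1 called lower and a median difference of 0.22. WNT11, a ligand of cell movement in the embryo that acts mostly without beta-catenin, lies on chromosome 11 and had 1 probe set. Its ratios were 1.56 for CL4, 5.08 for CL9 and 5.72 for CL46 on the arrays labelled ERG-induced, against 0.183, 0.154 and 0.438 for the same clones labelled non-induced. The lowest induced array was above the highest non-induced one. On the log2 scale WNT11 averaged 1.84 ± 1.04 in the induced arrays and -2.11 ± 0.81 in the non-induced ones (SD, n = 3 each), a 15.4-fold difference of 3.95 (SE 0.66, 95% interval 2.31 to 5.58, limma adjusted p = 0.192). Only 17 of the 19775 genes had a larger positive difference. The clones differed by 3.09, 5.04 and 3.71, and WNT11 passed the fold and unadjusted p thresholds under the other scalings, filters and fits tried and without each clone, with values between 3.40 and 4.37.

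WNT10B, a ligand of the beta-catenin branch known from bone and early blood cells, was the other ligand called higher. Its single probe set, of a gene on chromosome 12, read 1.39, 1.37 and 1.15 on the arrays labelled ERG-induced, against 0.853, 0.463 and 0.588 on those labelled non-induced. The induced arrays lay close together and above all non-induced arrays. The difference was 2.11-fold, or 1.08 on the log2 scale (SE 0.31, limma adjusted p = 0.278), with 0.71, 1.56 and 0.96 by clone. The call was lost without CL9 (0.84) and without CL46 (1.13).

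WNT9B, a ligand best known from kidney development, was the only gene of the set called lower in its mean. The ratios of its probe set, on chromosome 17, were 0.555, 0.127 and 0.587 on the arrays labelled ERG-induced, against 1.91, 2.0 and 1.41 on those labelled non-induced. The groups did not overlap, and the induced CL9 array was the lowest by far. WNT9B averaged -1.53 ± 1.25 in the induced arrays and 0.81 ± 0.27 in the non-induced ones (SD, n = 3 each). The difference of -2.34 (SE 0.65, limma adjusted p = 0.265) made it 5.08-fold lower in the ERG-induced group. The clones gave -1.79, -3.98 and -1.27, and the gene kept the call under the other scalings, filters and fits tried and without each clone (-2.88 to -1.53), although in the fit over probe sets the call was lost without CL4 (-2.62, limma adjusted p = 0.466).

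**Figure D2:**
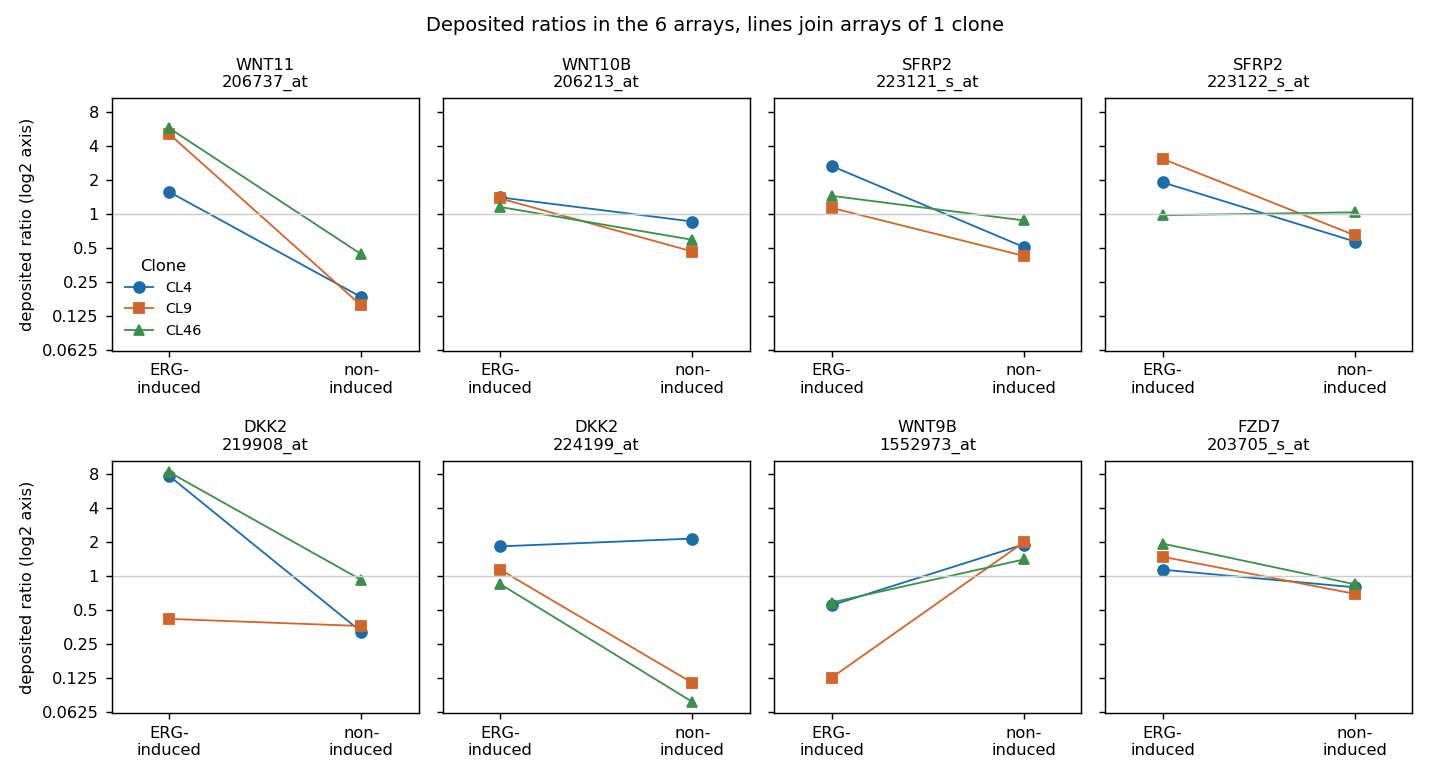
Deposited ratios (log2 axis) on ERG-induced arrays, left, and non-induced arrays, right, for the probe sets of the called genes and 1 of FZD7, with a line joining the 2 arrays of each clone. All 3 lines fall to the right for WNT11, WNT10B, FZD7, 219908_at of DKK2 and 223121_s_at of SFRP2 and climb for WNT9B, whereas 224199_at of DKK2 and 223122_s_at of SFRP2 each have a line that does not.

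Some ligands differed the same way in every clone without passing the test. WNT2 and WNT2B, related ligands of the beta-catenin branch, were below their non-induced partner in all 3 clones. For WNT2 the ratios were 1.21, 0.357 and 0.222 on the arrays labelled ERG-induced, against 2.29, 1.06 and 0.936 on those labelled non-induced. CL4 was higher than the other clones in both conditions, so that the groups overlapped. Its difference was -1.52 (SE 0.72, limma adjusted p = 0.448), and it passed both thresholds with the clone as a block (unadjusted p = 0.0131 in limma, adjusted p = 0.350). WNT1, the founding member of the family, had ratios of 1.32, 6.78 and 0.930 in the induced arrays, against 0.770, 1.07 and 0.646 in the non-induced ones. Most of its difference of 1.32 (SE 0.78, adjusted p = 0.547) came from CL9, at 2.66, where CL4 gave 0.78 and CL46 gave 0.53.

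In WNT2B and WNT16 the probe sets of the gene went apart. WNT2B had 4 probe sets, of which 1, 238512_at, was called lower, with ratios of 0.659, 0.250 and 0.822 on the arrays labelled ERG-induced and 1.18, 5.25 and 8.33 on those labelled non-induced. The groups of this probe set did not overlap, at a difference of -2.86 (SE 0.88, limma adjusted p = 0.277), and the call was lost without CL9 (-2.09) and without CL46 (-2.61). The other 3 gave -1.17 (SE 1.06), -0.70 (SE 1.63) and 0.40 (SE 0.97), and the mean over the gene was -1.08 (SE 0.54). WNT16, a ligand known from bone, had 1 probe set called higher, 224022_x_at. Its ratios were 3.32, 1.23 and 6.62 in the induced arrays, against 0.102, 0.770 and 0.350 in the non-induced ones, a difference of 3.31 (SE 0.96, adjusted p = 0.259) with no overlap, and the call was lost without CL4 (2.46) and without CL46 (2.85). The second probe set, 221113_s_at, was lower in all 3 induced arrays than in their partners, at -0.50 (SE 0.79), and the mean of 1.41 (SE 0.68, adjusted p = 0.458) was not called.

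The other 10 measured ligands were WNT4, WNT5A, WNT5B, WNT6, WNT7A, WNT7B, WNT8A, WNT8B, WNT9A and WNT10A, and their differences ran between -0.56 (SE 0.63) for WNT10A and 1.01 (SE 0.61) for WNT9A. WNT5A, the best studied ligand of the branch without beta-catenin, differed by 0.16 (SE 0.30), and its 95% interval of -0.58 to 0.89 lay within 2-fold in either direction. WNT4 and WNT5B had intervals within 2-fold as well, of -0.97 to 0.61 and -0.85 to 0.97. For the other 7 the interval reached past 2-fold in at least 1 direction.

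Of the 10 Frizzled receptors 9 were measured, with 0 called in either direction and a median difference of 0.31. FZD7, a receptor known from stem cells and from several cancers, came nearest. Its 2 probe sets agreed: 203705_s_at had ratios of 1.15, 1.49 and 1.95 on the arrays labelled ERG-induced, against 0.801, 0.701 and 0.852 on those labelled non-induced. The second, 203706_s_at, read 1.03, 1.58 and 1.57 in the induced arrays and 0.593, 0.974 and 0.795 in the non-induced ones. In both probe sets every induced array was above every non-induced array. The difference of 0.88 (SE 0.28, 95% interval 0.18 to 1.58, limma adjusted p = 0.311) was 1.84-fold, under the 2-fold threshold, and its unadjusted p was 0.0220 in limma. After quantile normalization across arrays it was 1.08 and FZD7 was called. With a clone left out it was not called: 0.99 without CL4, 0.87 without CL9 and 0.77 without CL46. The unadjusted p in limma was then 0.0382, 0.103 and 0.120.

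FZD5, a receptor known from the intestine and the eye, differed by -0.01 (SE 0.31, limma adjusted p = 0.993), with a 95% interval of -0.78 to 0.75. Its probe set 206136_at had ratios of 1.32, 0.692 and 0.916 on the arrays labelled ERG-induced and 0.670, 1.12 and 1.08 on those labelled non-induced, and 221245_s_at had 0.993, 0.829 and 1.32, against 0.881, 1.01 and 1.33. The groups overlapped in both, and the clones gave 0.58, -0.49 and -0.12. FZD2 was also held within 2-fold (0.19, 95% interval -0.58 to 0.97). FZD9 (1.10, SE 0.85) and FZD6 (0.84, SE 0.86) had the largest positive differences beside FZD7, each with CL4 at or above 2.38 and CL46 below 0, and FZD10 (-0.85, SE 1.20) and FZD3 (-0.44, SE 0.43) the largest negative ones. FZD1 (0.31, SE 0.66) and FZD4 (0.38, SE 0.32) completed the list, FZD4 with positive differences in all 3 clones.

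LRP5 and LRP6, the coreceptors of the beta-catenin branch, pointed in opposite directions and neither was called. LRP5 differed by 1.21 (SE 0.58, limma adjusted p = 0.451), with 2.70, 0.76 and 0.17 by clone, most of it in CL4. In its probe set 209468_at the ratios were 1.02, 1.66 and 1.31 on the arrays labelled ERG-induced, against 0.981, 0.831 and 0.773 on those labelled non-induced, with no overlap. The second, 229591_at, had 2.43, 1.08 and 0.923 in the induced arrays and 0.0597, 0.755 and 1.24 in the non-induced ones, so that the non-induced CL4 array alone stood far below the rest.

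For LRP6 the mean difference was -0.58 (SE 0.80, limma adjusted p = 0.818). One of its 3 probe sets, 225745_at, was called lower, with ratios of 0.566, 0.270 and 0.718 on the arrays labelled ERG-induced, against 1.28, 1.33 and 1.53 on those labelled non-induced. All induced arrays were below all non-induced ones there, at a difference of -1.52 (SE 0.44, adjusted p = 0.255), and the call was lost without CL4 (-1.70). In contrast, 205606_at (-0.25, SE 1.22) and 34697_at (0.03, SE 1.08) had overlapping groups. The mean over its probe sets was 1.06 for CL4, -2.45 for CL9 and -0.35 for CL46, and the sign turned without CL9 (0.35).

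Among the 9 secreted antagonists, all measured, 2 were called higher, 0 lower, and the median difference was 0.20. SFRP2, which binds WNT ligands outside the cell and lies on chromosome 4, had both of its probe sets called. Ratios of 223121_s_at were 2.65, 1.13 and 1.44 on the arrays labelled ERG-induced, against 0.508, 0.424 and 0.873 on those labelled non-induced, and the groups did not overlap. Those of 223122_s_at were 1.89, 3.06 and 0.970 in the induced arrays and 0.568, 0.644 and 1.03 in the non-induced ones, where the pair of CL46 did not separate, and with the clone as a block this probe set was not called (limma adjusted p = 0.461). The gene differed by 1.40, or 2.64-fold (SE 0.39, limma adjusted p = 0.265), with 2.06, 1.83 and 0.32 by clone, and lost its call without CL4 (1.07) and without CL9 (1.19).

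DKK2, a ligand of the LRP coreceptors that can block or, in some settings, promote WNT signals, also lies on chromosome 4. Its probe set 219908_at had ratios of 7.76, 0.421 and 8.38 on the arrays labelled ERG-induced, against 0.324, 0.364 and 0.933 on those labelled non-induced. CL4 and CL46 stood high when induced, and CL9 did not. In 224199_at the ratios were 1.85, 1.15 and 0.854 in the induced arrays and 2.16, 0.114 and 0.0775 in the non-induced ones, with CL9 and CL46 separated and CL4 not. Neither probe set was called by itself. Their mean differed by 2.42, or 5.35-fold (SE 0.83, 95% interval 0.37 to 4.47, limma adjusted p = 0.330), with 2.18, 1.77 and 3.31 by clone, and its groups overlapped. The call was lost without CL46 (1.97), without moderation of the variances, and when 219908_at, whose median ratio was below 1, was left out (2.19).

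SFRP5, a relative of SFRP2, differed by 1.26 (SE 0.72, limma adjusted p = 0.531) and its difference lay mostly in CL46. Its ratios were 0.852, 1.51 and 5.07 on the arrays labelled ERG-induced and 0.817, 1.15 and 0.503 on those labelled non-induced, and the clones gave 0.06, 0.40 and 3.33. DKK1, the prototype of its family and itself a target of beta-catenin, had ratios of 1.22, 1.18 and 0.700 in the induced arrays, against 0.602, 0.819 and 1.34 in the non-induced ones. It was higher in CL4 and CL9 and lower in CL46, with a mean of 0.20 (SE 0.41, adjusted p = 0.882) that became -0.21 without CL4. The other antagonists had wide errors: DKK4 gave -1.70 (SE 1.19), with -4.41 in CL4 and 1.04 in CL46, SFRP1 gave -0.34 (SE 0.82), SFRP4 gave 0.64 (SE 0.66), WIF1 gave 0.00 (SE 1.05) and DKK3, on 6 probe sets running between -1.22 and 1.45, gave -0.16 (SE 0.83).

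**Figure D3:**
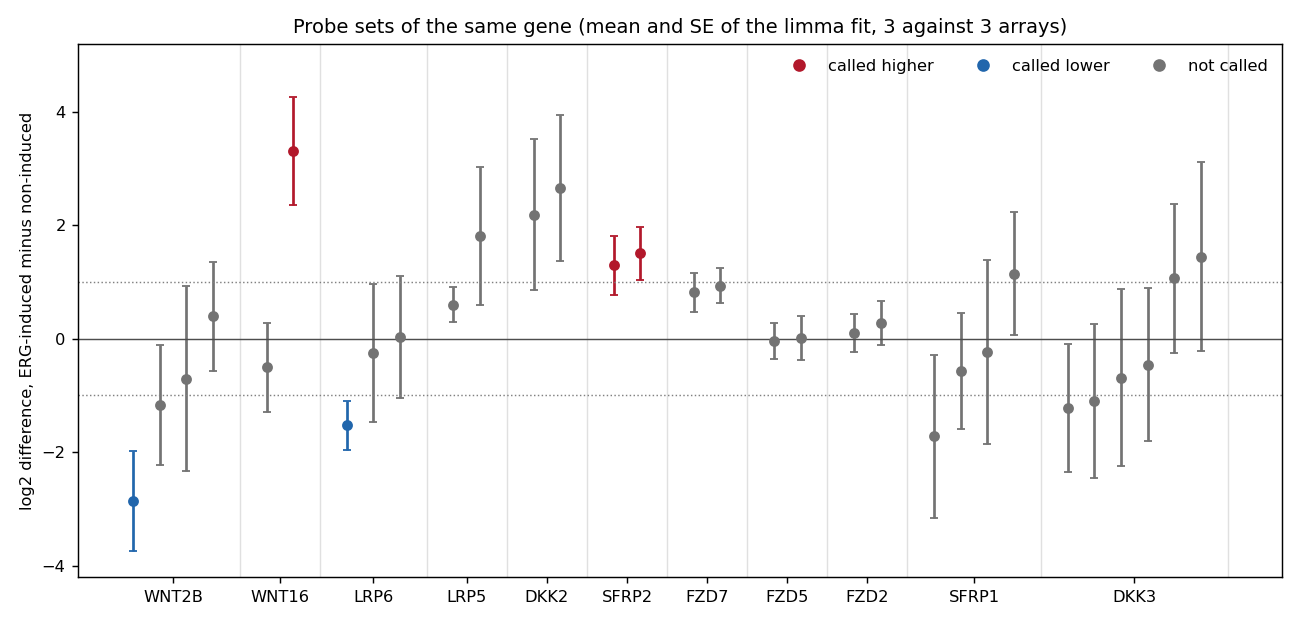
Log2 difference, ERG-induced minus non-induced, of each probe set of 11 genes (points) with its SE from the limma fit (bars, 3 arrays per group), red where called higher, blue where called lower and grey where not called, with dotted lines at 2-fold. Both probe sets of SFRP2 are red, 1 of 2 of WNT16 is red, 1 of 4 of WNT2B and 1 of 3 of LRP6 are blue, and the 6 probe sets of DKK3 spread over both sides of 0.

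Counted by probe set, 5 of the 75 were called higher (6.67%, where 2.82% of all probe sets were) and 3 lower (4.0%, where 8.16% of all probe sets were). Those higher belonged to WNT10B, WNT11, WNT16 and SFRP2, the last with 2, and those lower to WNT2B, WNT9B and LRP6. Of the 13 genes with exactly 2 probe sets, 9 had both on the same side of 0 (69.2%), and 58.9% of the 5015 genes of the array with 2 probe sets did. None of the 9 genes of the set with 3 to 6 probe sets had all of them on 1 side. How often this holds over all genes with as many probe sets was not counted.

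The spread between arrays of the same group was larger here than over the array as a whole. The within-group SD of a probe set had a median of 1.11 on the log2 scale over the 75 probe sets and 0.77 over all probe sets. Antagonists had the widest spread (median 1.67), ligands lay at 1.10, and the receptors and coreceptors were the steadiest at 0.53. A ratio keeps no brightness, so how much of this spread came from probe sets near the detection limit was not tested.

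Clone by clone, 12 of the 37 genes were higher in all 3 clones (32.4%, where 17.8% of all genes were) and 3 were lower in all 3 (8.11%, where 22.4% of all genes were). The 12 were WNT1, WNT5A, WNT6, WNT10B, WNT11, FZD2, FZD4, FZD7, LRP5, SFRP2, SFRP5 and DKK2, the 3 were WNT2, WNT2B and WNT9B, and 22 had clones on both sides of 0. These directions are those of the mean over probe sets, and single probe sets could differ. For example, 205990_s_at of WNT5A was lower in CL4 (-0.46) and CL9 (-3.41), and 222086_s_at of WNT6 was lower in all 3 clones. By clone the median of the set was 0.58, 0.30 and 0.17, against -0.04, -0.06 and -0.04 over all genes. WNT11 had the largest positive difference of the set in each clone. The largest negative one belonged to DKK4 in CL4 (-4.41), WNT9B in CL9 (-3.98) and WNT2 in CL46 (-2.08).

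Some markers of erythroid cells, the type of K562, and of other cell types differed between the same arrays. Their counts stand beside 3.12% of all genes called higher and 6.32% called lower. Of 9 measured megakaryocyte markers 3 were called higher, SELP (3.76), GP1BA (2.38) and ITGB3 (1.23), with a median of 1.23. Their mean log2 ratio ranged between -0.16 and 1.17 on arrays with the ERG-induced label and between -1.17 and -0.72 on the others, without overlap. Of 7 measured erythroid markers TFRC was called lower (-1.67), and the mean log2 ratio lay between -0.43 and -0.11 in the induced arrays and between -0.04 and 0.19 in the non-induced ones. Fibroblast and stroma markers had 2 of 10 called higher, FAP (3.61) and PDGFRA (1.43), and 1 lower, COL1A1 (-1.09). The 5 probe sets of COL1A1 ran between -3.26 and 1.22. Over the 10 markers 6 differences were above 0 and 4 below, with a median of 0.41. Their mean log2 ratio lay between -0.30 and 0.17 in the induced arrays, against -0.70 to -0.41 in the non-induced ones. How far FAP alone set this mean was not tested. None of 8 monocyte markers was called, with a mean log2 ratio between -0.21 and 0.69 in the induced arrays and between -0.52 and 0.14 in the non-induced ones. The calls of ITGB3, PDGFRA and COL1A1 were lost under some alternatives and those of SELP, GP1BA, TFRC and FAP under none of 10. The part of these differences in the WNT values was not tested. Each culture was a clone of K562, and a difference in some of its cells cannot be told apart from a difference in all of them.

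The rest of the pathway was described with lists of genes named by role, and their counts stand beside the 3.12% called higher, the 6.32% called lower and the median of -0.03 over all genes. In secretion and extracellular handling of the ligands, 9 of 10 listed genes were measured, 1 was called higher and 0 lower (median 0.00). The 1 was TINAGL1, a matrix glycoprotein, at 1.67 (SE 0.34, limma adjusted p = 0.193), with 2.34, 1.04 and 1.61 by clone. Of 18 R-spondins, LGR receptors and other WNT receptors 1 was called higher and 0 lower (median -0.06). That was ADGRA2, a receptor that works with RECK as coactivator of WNT7 signals in vessels, at 2.67 (SE 0.51, adjusted p = 0.192), and both of its probe sets were called. Of 9 other antagonists 1 was called higher, APCDD1, a membrane protein that blocks WNT reception, at 2.02 (SE 0.55, adjusted p = 0.262), although neither of its 2 probe sets was called by itself.

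Inside the cell, 25 of 26 listed genes of the destruction complex and its partners were measured, with 1 called higher and 3 lower (median 0.26). NKD1, a feedback inhibitor that binds Dishevelled, was higher by 1.23 (SE 0.40, limma adjusted p = 0.316). Of its 3 probe sets 1 was called, and its gene call was lost with the median over probe sets (1.05). APC, the scaffold of the complex, differed by -1.54 (SE 0.37, adjusted p = 0.235), and 2 of its 5 probe sets were called. TNKS2, which marks Axin for degradation, gave -1.27 (SE 0.37), and CXXC4, a Dishevelled inhibitor, gave -1.23 (SE 0.41). Neither of the 2 probe sets of CXXC4 was called by itself, and its gene call was lost once the clone was a block, at an adjusted p = 0.406.

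At the level of beta-catenin and its nuclear partners, 20 of 21 listed genes were measured, 1 was called higher and 0 lower (median -0.10). BCL9L, a coactivator that binds beta-catenin, was higher by 1.95 (SE 0.37, limma adjusted p = 0.192), although neither of its 2 probe sets was called. CTNNB1, which encodes beta-catenin and is named here for its place in the pathway after its value was seen, differed by -0.29 (SE 0.28, adjusted p = 0.720). Among commonly used target genes of beta-catenin, 24 of 26 were measured, 2 were called higher and 1 lower (median 0.30). Those higher were SP5, a transcription factor, at 1.98 (SE 0.49, adjusted p = 0.242), and NKD1 again, and the one lower was MMP7, a matrix metalloproteinase, at -2.39 (SE 0.66, adjusted p = 0.265).

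In the branch without beta-catenin, through which WNT11 mostly acts, 28 of 29 listed effectors were measured, with 1 called higher and 4 lower (median -0.15). ROCK1 and ROCK2, kinases that contract the cytoskeleton downstream of RHOA, gave -1.38 (SE 0.34, limma adjusted p = 0.235) and -1.95 (SE 0.70, adjusted p = 0.343), with 3 of 5 and 1 of 2 probe sets called lower. PLCB4, a phospholipase of the calcium branch, gave -1.67 (SE 0.39, limma adjusted p = 0.224) on 2 of 2 called probe sets. NFAT5 gave -1.93 (SE 0.44, limma adjusted p = 0.219). It was listed with the other NFAT transcription factors but is known for responding to osmotic stress, so its place in this branch is uncertain. PLCB2, a related phospholipase, was the one higher, at 1.23 (SE 0.39), with neither of its 2 probe sets called. Of the 15 called genes in these lists, 5 kept their call under each of 10 alternatives, leaving out each clone among them, namely ADGRA2, TINAGL1, BCL9L, PLCB4 and ROCK1, and the other 10 lost it when 1 of the clones was left out.

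**Figure D4:**
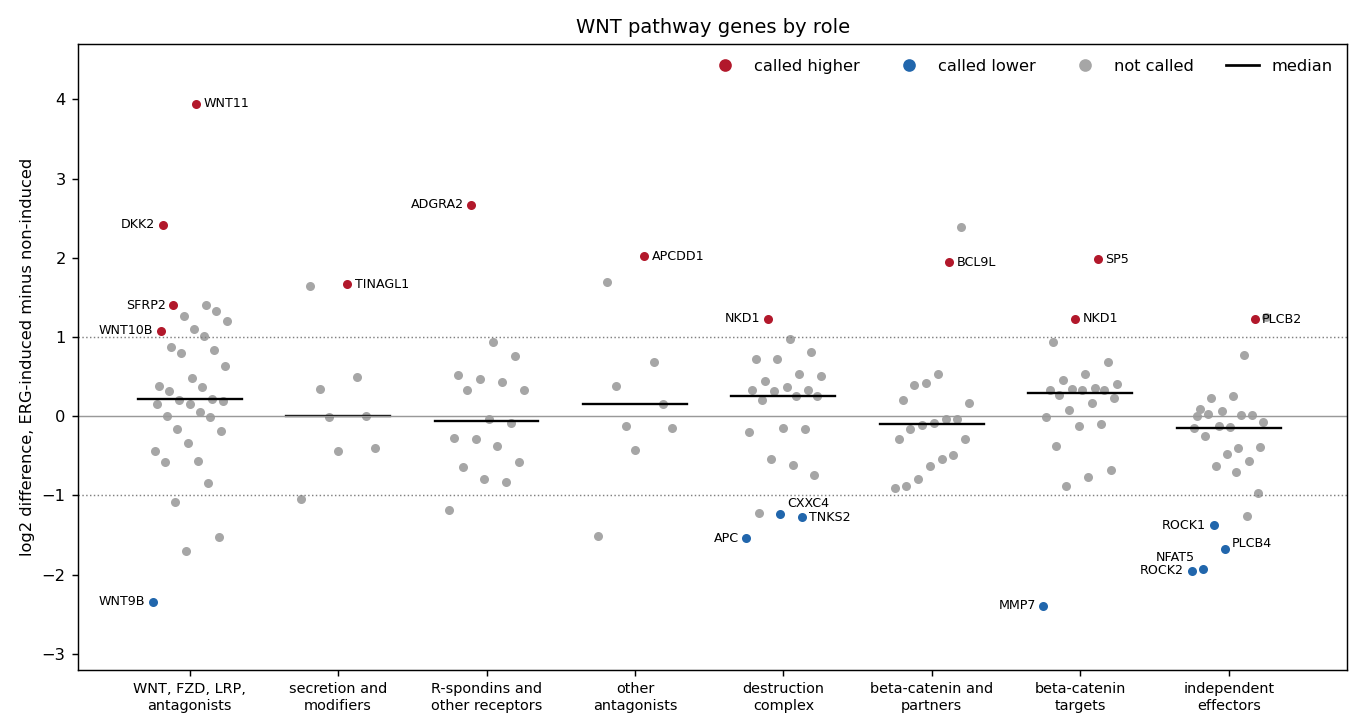
Log2 difference, ERG-induced minus non-induced, of the WNT ligands, receptors and antagonists (first column) and of the other pathway lists, 1 point per gene, red where called higher, blue where called lower and grey where not called, with black lines at the medians and dotted lines at 2-fold. Medians lie between -0.15 and 0.30, WNT11 is the highest point, and NKD1 stands in 2 lists.

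ERG is an ETS factor, a family that binds DNA at a GGAA core, and TCF/LEF factors bind CTTTGA or CTTTGT. Promoter windows of 300 bases, from 250 before to 50 after the transcript start, were available here from RefSeq (GRCh38.p14) for 27 of the 40 genes, in 30 windows, WNT2B, WNT5A and WNT5B having 2 each. Letters were searched on both strands. GGAA was found in 26 of the 30 windows, and 95.5% of all 35116 promoter windows of that length hold it. CGGAAG was found in 3 and AGGAAG in 5, both longer ETS sequences that contain GGAA, against 19.5% and 33.6% of all windows. CTTTGA was found in 1 of the 30 windows and CTTTGT in 4, against 12.9% and 16.1% of all windows, and DKK1 held 2 of the first and 1 of the second.

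Of the called genes SFRP2 and WNT9B had a window, and the 250 bases before their starts are shown because one was called higher and the other lower, printed 5′ to 3′ with GGAA or its reverse complement TTCC in capitals. The window of SFRP2 (chr4:153789084-153789333, minus strand) holds 2 matches and that of WNT9B (chr17:46851333-46851582, plus strand) holds 1, all as TTCC in the printed direction.
SFRP2: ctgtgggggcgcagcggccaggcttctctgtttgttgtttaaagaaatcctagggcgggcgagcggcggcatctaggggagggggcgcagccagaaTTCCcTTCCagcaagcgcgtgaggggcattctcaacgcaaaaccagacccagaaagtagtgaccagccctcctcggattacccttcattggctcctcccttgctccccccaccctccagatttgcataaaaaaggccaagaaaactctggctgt
WNT9B: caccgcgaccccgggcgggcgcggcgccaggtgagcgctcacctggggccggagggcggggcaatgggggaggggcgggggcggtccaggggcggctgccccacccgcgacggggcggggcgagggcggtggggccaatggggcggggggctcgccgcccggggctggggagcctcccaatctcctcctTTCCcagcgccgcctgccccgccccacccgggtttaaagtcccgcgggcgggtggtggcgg
Neither window holds the longer ETS sequences or those of TCF/LEF factors, which says only that these letters are not in these bases.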

How the data were processed

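Total RNA of 3 K562 pTRE-ERG clones, grown with and without DOX, was measured by the authors on Affymetrix U133 Plus 2.0 arrays, and GeneSpring was used. The deposited values are ratios: 50737 probe sets have a median of 1 over the 6 arrays and 3938 a median below 1. How background was corrected and arrays were scaled was not given in the sources used here. Cells had 8 days of DOX by the labels and methods, which a figure legend does not match.

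From the ratios, log2 values were averaged over the probe sets with 1 gene symbol (41091; 1801 had several and 11721 none, and 62 control probe sets were left out) and tested two-sided with limma 3.58.1 in R 4.3.3 (lmFit, eBayes, no covariate), with Benjamini-Hochberg adjustment over all 19775 genes or 54613 probe sets. A call needed at least 2-fold and p under 0.05 before adjustment. The fit was tested on simulated data. The labels do not say that arrays came from separate cultures beyond the clones. The p-values thus rest on the spread between these clones within each group, and 3 arrays per group limit the precision.

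The members, lists and named genes were chosen with earlier results of these data known. Array values were given for members called as a gene or in a probe set, for those with 1 direction in all 3 clones and a mean log2 difference of at least 1 in size, and for WNT11, FZD5, FZD7, LRP5, LRP6 and DKK1. Pathway genes were named if called, up to 4 per list by smallest p, and ROCK2 and CTNNB1 were added after their values were seen. The clone pairs the arrays. Across genes, what was left of the 2 arrays of a clone after subtracting the group means correlated at 0.04 in CL4, 0.05 in CL9 and 0.03 in CL46. Alternatives were the clone as a block, median centring, quantile normalization, no moderation, the median over probe sets, leaving out probe sets with a median below 1, a floor at a ratio of 0.1, a 1.5-fold threshold, adjusted p, and each clone left out. Counting a gene as called on at least 1 probe set was added after seeing the data. Protein sequences were not used here.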

Additional observations from a re-analysis of the deposited data

How the results depend on the processing

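With the clone as a replicate block, the 5 calls of the set were kept and WNT2 (-1.52) was added, so that 2 genes were called lower. The count of genes called lower was between 1 and 3 with a clone left out, and 3 when 1 called probe set sufficed. At an adjusted p under 0.05 in limma, 0 genes were called in either direction, in the set and over all genes, while 4 genes of the array passed that limit after quantile normalization (lowest 0.0304) and 2 with ratios floored (lowest 0.0181). Without moderation 369 of all genes were called higher, against 617, and DKK2 was lost. After quantile normalization 8 probe sets of the set were called higher, against 5. FZD5, near 0, changed sign to 0.092 with median centring and 0.16 with quantile normalization. With a clone left out FZD5 ran between -0.31 and 0.23, LRP6 between -1.40 and 0.35 and DKK1 between -0.21 and 0.77. Leaving out a clone took the call of SFRP2 (CL4 or CL9), WNT10B (CL9 or CL46) or DKK2 (CL46). It added WNT2 (-1.82, without CL4) and WNT16 (2.14, without CL9). Without CL46 it added WNT2B (-1.42) and DKK4 as lower and SFRP4 as higher. The causes were not tested. Median centring and quantile normalization moved the median of all genes to 0.08 and 0.10, and that of the set to 0.32 and 0.41. Of the other values of single genes, 132 kept their direction and their side of the threshold. Arrays without brightness values do not show which probe sets were near background.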
